A study of Mus musculus with 6 samples.

Results

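The genes of the cytosolic ribosomal proteins were examined in Matrigel spheroids of D2A1, a mouse mammary tumor cell line, given recombinant SLURP1 (rSLURP1) or recombinant GST (rGST). Members were the genes whose name follows the Rpl or Rps pattern, together with Rplp0, Rplp1, Rplp2 and Rpsa. S6 kinase genes and names with -ps, which mark pseudogenes, were left out. This gave 91 of the 54146 genes in the deposited table. They comprised 46 canonical large subunit genes, 31 canonical small subunit genes and 11 paralogs. The others were Rps19bp1, which matches the name pattern but encodes a binding partner of a ribosomal protein, and Rpl37rt and Rps12l1. The latter names are annotated as pseudogenes and were put in neither class. Of the 91 names, 86 were tested because 3 or more libraries had a TPM of 1 or above, among them all 77 canonical genes and 7 of the 11 paralogs.

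RNAseq was carried out on 3 rSLURP1 and 3 rGST libraries of this one cell line, with a labelled dose of 50 nM for both proteins and, by the study's methods, harvest on day 5. The labels do not say whether the libraries of a treatment came from separate cultures, so p-values measure the spread between these libraries. SLURP1 is a secreted protein of the Ly6 family, and GST is an unrelated protein used as the control. The comparison asks how gene expression of the spheroids differed between the proteins.

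A cytosolic ribosome holds ribosomal RNA and a nearly fixed set of proteins. The small subunit reads the mRNA and the large subunit joins the amino acids. The mRNAs of its proteins are among the most abundant in growing cells. Many of them begin with a short stretch of pyrimidines, the 5′ terminal oligopyrimidine tract, through which the mTOR pathway sets how well they are translated. Some ribosomal proteins have paralogs that can take the place of the usual copy in certain tissues or states.

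The tract was looked for in the RefSeq promoter sequences (GRCm38.p6), which held 79 annotated starts for 67 of the 91 names. The start base lay inside an unbroken run of at least 6 C or T in 28.4% of the 67 starts of canonical genes and in 7.25% of the 32851 starts of all genes. A run of at least 8 C or T within 15 bases of the start was found in 26 canonical starts (38.8%) and in 3943 of all starts. The following windows of 30 bases, 15 on either side of the start and read 5′ to 3′, carry the longest such runs over the start, with runs of at least 6 pyrimidines in capitals.
Rpl7a (chr2:26910792-26910821, plus strand): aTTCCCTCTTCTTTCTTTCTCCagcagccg
Rpl27a (chr7:109519180-109519209, plus strand): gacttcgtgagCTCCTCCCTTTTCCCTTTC
Rpl34 (chr3:130730323-130730352, minus strand): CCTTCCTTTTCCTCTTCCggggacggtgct
Rpl35 (chr2:39005117-39005146, minus strand): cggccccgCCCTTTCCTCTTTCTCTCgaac
The genes at the ends of the range of fold changes described further on are shown the same way, Rpl24 being low and the others high. Rpl7a, above, is also at the low end.
Rpl24 (chr16:55966260-55966289, plus strand): agaaagctgttgctaggaaacagactgggc
Rps2 (chr17:24720048-24720077, plus strand): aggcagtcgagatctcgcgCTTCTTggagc
Rps12 (chr10:23787195-23787224, minus strand): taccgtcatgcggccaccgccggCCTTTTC
Rps7 (chr12:28635939-28635968, minus strand): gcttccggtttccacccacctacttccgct
Rpl26 (chr11:68901551-68901580, plus strand): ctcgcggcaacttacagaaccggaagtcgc
Rpl3, Rpl36, Rps14 and Rps20 belong to the same ends and are named only. The motif CCGGAAG, known to be bound by ETS factors, was found on either strand in 37.3% of the 67 canonical promoters of 300 bases and in 8.86% of all promoters. AAGATGG, part of the motif bound by YY1, was found in 16.4% and 6.34%. A match is a run of letters, and binding was not measured.

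In TPM, a unit corrected for transcript length, ribosomal protein mRNAs were among the highest in every library. The 77 canonical genes had a median TPM of 1690 to 1717 in the rGST libraries and of 2398 to 2656 in the rSLURP1 libraries. Between 49 and 50 of the 100 highest genes with rGST were members, against 58 to 61 with rSLURP1. The order of the levels among the canonical genes was nearly the same in all libraries, with a Spearman correlation of 0.974 to 0.998 over 77 genes for each pair of libraries, which share their transcript lengths and base composition.

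The highest gene was Rps28, a small subunit protein near the mRNA exit. Its TPM was 6061, 5692 and 6122 in the rGST libraries and 7665, 7889 and 8043 in the rSLURP1 libraries. Rps27, of the small subunit, was close to it at 5653 ± 89.7 and 7426 ± 214 (SD, n = 3 each). With rGST, Rps28 averaged 5958 ± 233, and its libraries overlapped with those of Rps27, so their order there is not resolved. Rps21 and Rpl23a were also among the 5 highest genes, with log2 fold changes of 0.41 and 0.49. At the other end, Rpl29 had the lowest TPM of the canonical genes, 103, 103 and 102 with rGST and 154, 149 and 142 with rSLURP1, while the next gene, Rpl35a, was at 603 ± 7.92 in the rGST libraries (SD, n = 3). Copies of ribosomal protein genes are common in the genome and can share reads, as described for Rpl35a further on, so low values are uncertain.

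**Figure D1:**
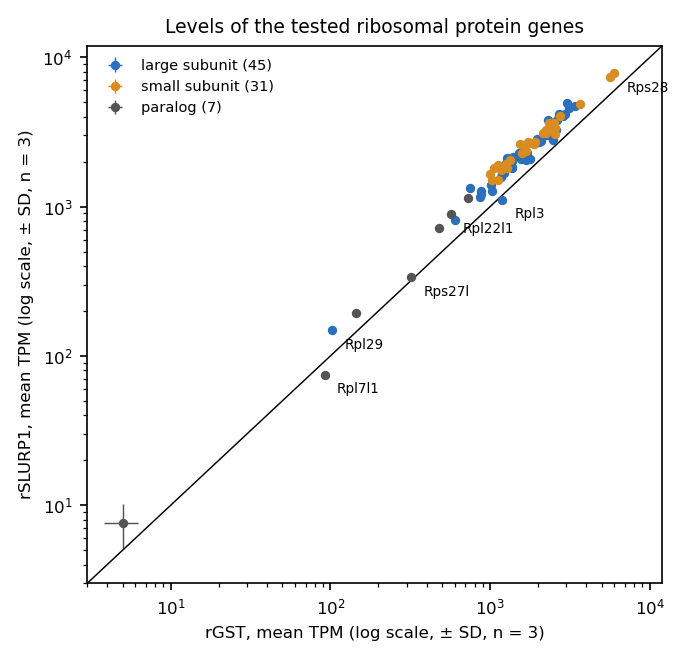
Mean TPM with rSLURP1 (vertical) against rGST (horizontal), both on log scales, for 45 large subunit genes, 31 small subunit genes and 7 paralogs. Bars are the SD of 3 libraries and the line marks equal levels. The canonical genes lie above the line as a band, except Rpl3, and Rpl7l1 lies below it.

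Spheroids treated with rSLURP1 had a larger share of ribosomal protein mRNA. The 91 names together held 15.155%, 15.003% and 15.657% of the TPM total in the rGST libraries and 21.006%, 21.648% and 21.943% in the rSLURP1 libraries. The lowest rSLURP1 library stood well above the highest rGST library, and the means were 15.3% ± 0.342 and 21.5% ± 0.479 (SD, n = 3 each). Since TPM is a share, a larger part for these genes leaves less for others. In bulk RNA, a change in the kinds of cells cannot be told apart from a change in RNA per cell. No test was made of this sum, because the group was chosen with results of these data known.

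**Figure D2:**
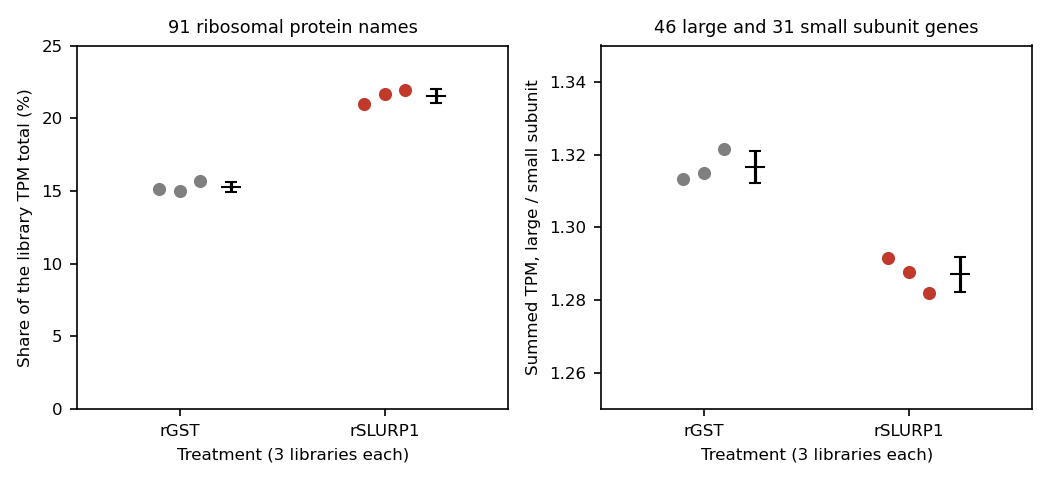
Left, share of the TPM total (%) held by the 91 ribosomal protein names, and right, summed TPM of the 46 large subunit genes divided by that of the 31 small subunit genes, on an axis that does not start at 0. Points are libraries, and bars are the mean and SD of 3. The share was higher with rSLURP1 (21.5% against 15.3%) and the ratio lower (1.287 against 1.317), without overlap in either.

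By gene, 81 of the 86 tested members were higher with rSLURP1 and 1 was lower (limma on log2(TPM + 1) over 12301 genes, with a Benjamini-Hochberg adjusted p no greater than 0.05). Of all tested genes, 8.66% were higher and 58.5% were lower. In those 81 members, every rSLURP1 library lay above every rGST library, which held for 9.75% of all tested genes, against 61.7% with every rSLURP1 library below. The median log2 fold change was 0.51 over the tested members and -0.33 over all tested genes, so the members lay 0.83 above that median. As deposited, none reached a fold change of 2 (a log2 fold change of 1), which 1.15% of all tested genes did upward. Some members did under other scalings. Rpl26 was at 1.17 and Rps7 at 1.14 with median-ratio scaling, and Rps20 at 1.13 when corrected for transcript length and GC content. The shift as deposited was therefore below that fold for each gene and shared by nearly all of them. The replicate spread was smaller still, with a median coefficient of variation over the canonical genes of 2.25% with rGST and 2.88% with rSLURP1.

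The sign of the shift held under each scaling tried, but its size and the calls depended on it. With median-ratio scaling of the libraries, 85 members were higher and 0 lower, against 26.0% and 25.2% of all genes. Quantile normalization left 60 higher and 4 lower (Rpl3, Rpl36, Rpl7a and Rps14), against 25.3% and 23.6%. When fold changes were corrected for the length and GC content of the longest transcript of each gene, 81 were higher and 0 lower, against 27.0% and 21.9%. The median log2 fold change of the members was 0.86, 0.20 and 0.69 under these settings, where the median over all genes was 0.00, 0.02 and 0.03.

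**Figure D3:**
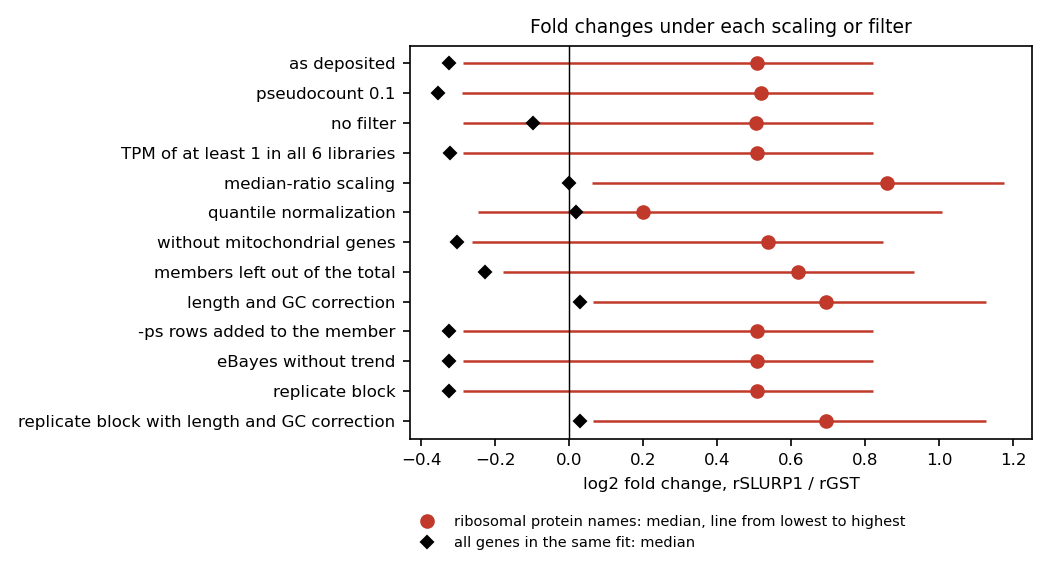
Log2 fold change, rSLURP1 over rGST, of the ribosomal protein names under each scaling, filter or model (circle, median; line, lowest to highest member) beside the median of all genes in the same fit (diamond). The median of the members was above 0 and above that of all genes in each, at its smallest (0.20) with quantile normalization, where 4 members were lower.

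Transcript length moved with the fold change. Across 12293 genes the log2 fold change had a Spearman correlation of -0.25 with the length of the longest transcript, and genes are not independent replicates. Ribosomal protein transcripts are short, with a median longest transcript of 1094 bases over the canonical genes against 3152 over all tested genes. Other genes with a longest transcript under 1000 bases had a median log2 fold change of -0.05, with 220 higher and 271 lower of 1213. That median is 0.27 above the median of all tested genes, of which 8.66% were higher and 58.5% lower. Other genes with a mean TPM of at least 500 had a median of -0.05, also 0.27 above that of all tested genes, with 54 higher and 72 lower of 167. Among the canonical genes themselves the correlation with length was 0.13, with GC content -0.12 and with the mean level -0.13 (Spearman, n = 77 genes). All of these are descriptions across genes. The longest annotated transcript, for example 5179 bases for Rps15a and 3706 for Rps20, need not be the one expressed.

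Large and small subunit genes moved in the same direction, apart from Rpl3. Of the 46 canonical large subunit genes, 45 were higher and 0 lower, with a median log2 fold change of 0.48. All 31 canonical small subunit genes were higher, with a median of 0.54. Over all tested genes the shares were 8.66% higher and 58.5% lower. With quantile normalization, 28 large subunit genes were higher and 3 lower, and 24 small subunit genes were higher and 1 lower. That setting called 25.3% of all tested genes higher and 23.6% lower. The summed TPM of the large subunit divided by that of the small subunit was 1.313, 1.315 and 1.321 in the rGST libraries and 1.292, 1.288 and 1.282 in the rSLURP1 libraries. The libraries did not overlap, although the means differed little, and one factor per library cancels in the ratio. The large subunit minus the small subunit median was -0.06 as deposited and -0.01 with quantile normalization, and was not tested.

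**Figure D4:**
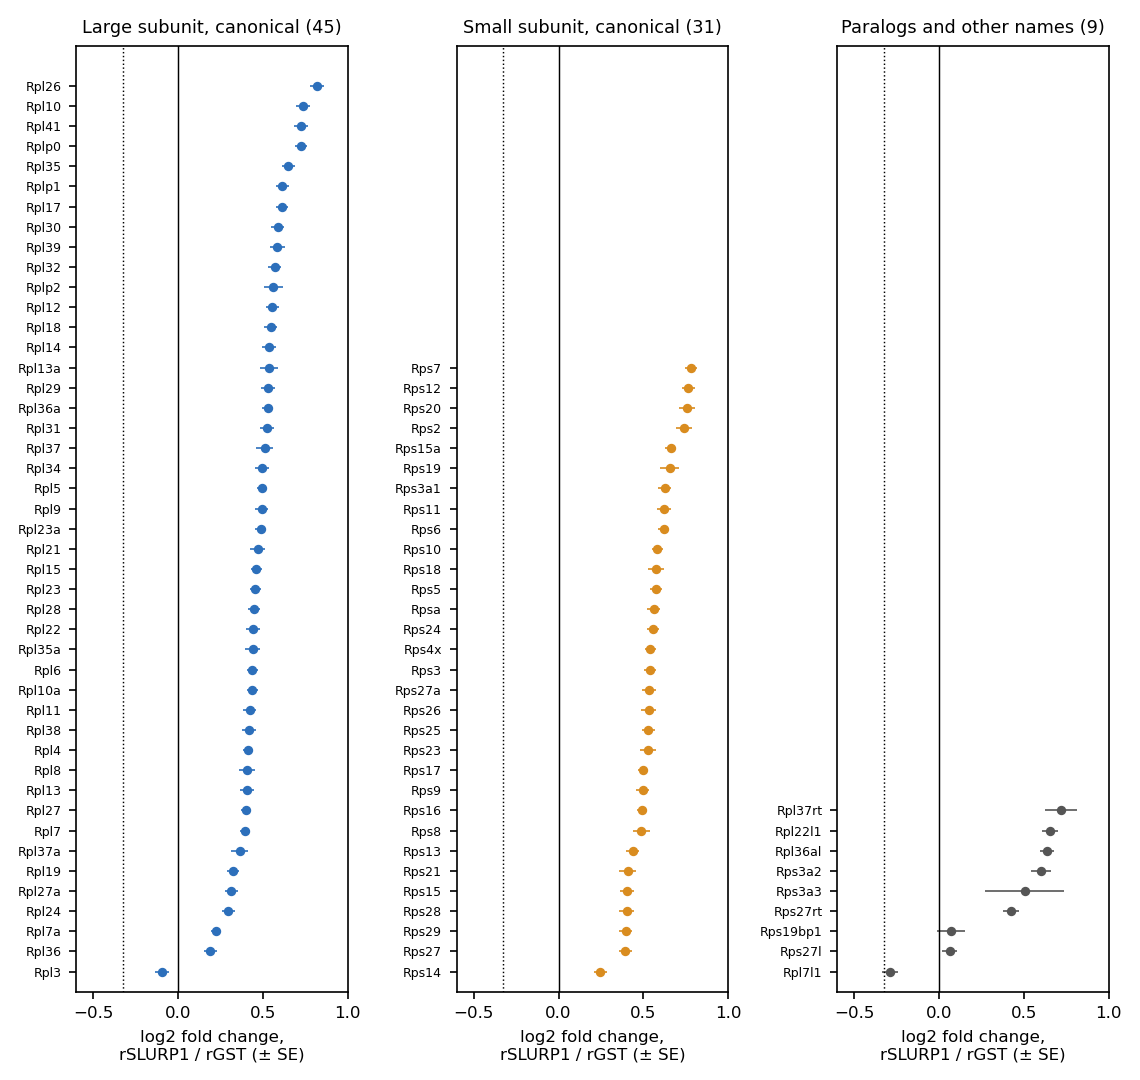
Log2 fold change (rSLURP1 over rGST, on log2(TPM + 1)) with its standard error for 85 of the 86 tested names, by class and sorted by size. The solid line marks 0 and the dotted line the median of all tested genes (-0.33). As deposited, canonical genes other than Rpl3 lie above 0, and Rpl3, Rps27l, Rps19bp1 and Rpl7l1 stand apart at the low end. Rpl3 and Rpl7l1 are above 0 with median-ratio scaling. With quantile normalization Rps27l (0.21) and Rps19bp1 (0.41) are above the median of the members (0.20).

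The largest increase among canonical genes as deposited was that of Rpl26 (ENSMUSG00000060938.14; GRCm38 chromosome 11, 68901583 to 68906989, plus strand), which lies at the exit of the peptide tunnel and is known to bind p53 mRNA. Its TPM was 729, 737 and 790.2 with rGST and 1344, 1312 and 1326 with rSLURP1, a log2 fold change of 0.82 (standard error, SE, 0.040, limma, adjusted p = 3.86e-06). Both groups were tight and far apart. Rpl29 (0.77) was highest with quantile normalization, and Rps20 (1.13) when length and GC content were corrected for, blocked or not. That correction takes the longest annotated transcript, 3706 bases for Rps20, which need not be the one expressed. Rps7 (ENSMUSG00000061477.4; chromosome 12, 28630854 to 28635953, minus strand), a small subunit protein mutated in some patients with Diamond-Blackfan anemia, had 1048, 1065 and 1073 TPM with rGST and 1801, 1791 and 1891 with rSLURP1. Its log2 fold change was 0.78 (SE 0.035, limma, adjusted p = 2.70e-06). Rps12, Rps20 and Rps2, all of the small subunit, followed with 0.76, 0.76 and 0.74, so that 4 of the 5 largest increases were in small subunit genes. Rpl10, which completes the peptidyl transferase region late in assembly and is on chromosome X, had 0.74, and Rpl41, the smallest ribosomal protein, had 0.72.

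The smallest increases that passed the test were those of Rpl36, Rpl7a and Rps14. Rpl36, a large subunit protein, had 2446, 2421 and 2530 TPM with rGST and 2716, 2809 and 2911 with rSLURP1. Its log2 fold change was 0.19 (SE 0.039, limma, adjusted p = 0.00356), and the libraries did not overlap. Rpl7a had a log2 fold change of 0.22, Rps14 of 0.25 and Rpl24 of 0.30. With quantile normalization these 4 genes had values below 0 (-0.17, -0.16, -0.18 and -0.07), and Rpl36, Rpl7a and Rps14 were then called lower. Rpl36 also lost its call with the length and GC correction (0.10, SE 0.073, limma, adjusted p = 0.307).

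Rpl3 was the exception among the canonical genes. Rpl3 (ENSMUSG00000060036.14; chromosome 15, 80077791 to 80091868, minus strand) encodes a large subunit protein that reaches toward the peptidyl transferase center. Its TPM was 1179.7, 1169 and 1219.7 in the rGST libraries and 1059, 1159 and 1124 in the rSLURP1 libraries. The rSLURP1 values all lay below the rGST values, but by little, and the log2 fold change was -0.10 (SE 0.042, limma, adjusted p = 0.0796). Relative to the median of all genes Rpl3 was at 0.23. The sign of its fold change followed the scaling, with 0.26 under median-ratio scaling, where it was called higher, and 0.21 with the length and GC correction. Without rSLURP1 replicate 2 it was called lower (-0.12, limma, adjusted p = 0.0401). Among the 77 canonical genes it was the lowest in 17 of the 19 settings. It was next to lowest in the 2 that correct for length and GC, where Rpl36 was lower. Many of these settings leave the fold changes as they are or scale each library as a whole, so they could hardly change this order. Of those that could, quantile normalization, the added -ps rows and each library left out in turn kept Rpl3 lowest.

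Genes grouped by their place in the ribosome moved in one direction, apart from Rpl3. Of the 77 canonical genes 76 were higher, against 8.66% of all tested genes, so a group that is wholly higher follows the canonical genes at large. The 4 proteins at the P stalk, the flexible arm that recruits translation factors, were all higher. Rplp0, the stalk base, had 1298, 1258 and 1269 TPM with rGST and 2034, 2153 and 2124 with rSLURP1, a log2 fold change of 0.72 (SE 0.036, limma, adjusted p = 3.92e-06). Rplp1, Rplp2 and Rpl12 had 0.61, 0.56 and 0.56. Rpl5 and Rpl11, which carry the 5S ribosomal RNA and bind MDM2 when they are free, had 0.49 and 0.42. The 8 proteins around the exit tunnel were all higher, with a median of 0.55 and a range from 0.33 to 0.82.

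In the small subunit, the 3 proteins at the mRNA entry were higher with a median of 0.54, and the 5 at the mRNA exit with a median of 0.53. The 4 near the decoding and P sites were higher with a median of 0.51. The 9 listed genes known for Diamond-Blackfan anemia, which come from both subunits, were all higher with a median of 0.53. Rps6, the substrate of the S6 kinases, had 1331, 1338 and 1353 TPM with rGST and 2008, 2053 and 2118 with rSLURP1, a log2 fold change of 0.62 (SE 0.034, limma, adjusted p = 6.28e-06). Rps27a, which is made as a fusion with ubiquitin, had 0.53. Of the 3 proteins near the peptidyl transferase center, Rpl10 and Rpl8 were higher and Rpl3 did not pass the test. No group was compared with another by a test, and with 76 of the 77 canonical genes higher these counts do not set a group apart. With quantile normalization 1 of the pair of Rpl5 and Rpl11, 1 of the 3 near the peptidyl transferase center and 3 of the 5 mRNA exit proteins were called higher. That setting called 25.3% of all tested genes higher.

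Paralogs were more varied than canonical genes. Of the 7 tested, 4 were higher, 1 was lower and 2 did not pass the test, where 8.66% of all tested genes were higher and 58.5% lower. Rpl10l, Rpl39l, Rpl3l and Rps4l, some of which are known from testis or muscle, stayed below a TPM of 0.2 in every library. Among them, Rps4l is annotated as a transcribed processed pseudogene. Rps12l1, outside the classes, was listed at 0 in all libraries but one rSLURP1 library with 3.34. Rpl37rt, the other name outside the classes and annotated as a transcribed processed pseudogene, had 59.6, 61.1 and 55.98 TPM and then 85.5, 97.6 and 112, a log2 fold change of 0.72. Rps3a2 and Rps3a3 are annotated as processed pseudogenes and share sequence with Rps3a1, so reads may be split between them. Rps3a3 had 5.88, 5.52 and 3.64 TPM in the rGST libraries and 6.58, 5.76 and 10.6 in the rSLURP1 libraries, which overlap, and did not pass the test (log2 fold change 0.50, SE 0.232, limma, adjusted p = 0.0883). Rps3a2 passed with 0.60, beside 0.63 for Rps3a1. As deposited, their ratios to Rps3a1 overlapped between the treatments, with Rps3a2 at 20.4% ± 0.759 of Rps3a1 in the rGST libraries and 20.04% ± 0.791 in the rSLURP1 libraries (SD, n = 3 each). With quantile normalization the log2 ratios were 0.44 higher with rSLURP1 for Rps3a2 and 0.68 higher for Rps3a3.

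Rpl7l1 was the one member that was lower. Rpl7l1 (ENSMUSG00000063888.6; chromosome 17, 46773907 to 46782672, minus strand) is related to Rpl7. Its TPM was 91.5, 88.6 and 95.8 with rGST and 72.8, 78.2 and 74.4 with rSLURP1, without overlap. The log2 fold change was -0.29 (SE 0.048, limma, adjusted p = 0.00132), and the value stood 0.04 above the median of all genes. Its direction turned with median-ratio scaling and with the length and GC correction, both 0.06 with no call, and with quantile normalization it was at -0.0093 (limma, adjusted p = 0.866) and also not called. Its partner Rpl7 was higher (log2 fold change 0.39), and Rpl7l1 stood at 4.41% ± 0.139 of the TPM of Rpl7 in the rGST libraries and 2.74% ± 0.119 in the rSLURP1 libraries (SD, n = 3 each). One factor per library cancels in such a ratio. As a difference of log2 fold changes between Rpl7l1 and Rpl7 it was -0.68 as deposited, -0.58 when corrected for length and GC, and -0.03 under quantile normalization, where Rpl7 lost its call (0.02, limma, adjusted p = 0.621).

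Rps27l, a paralog of Rps27 known as a target of p53, also kept apart as deposited. Rps27l (ENSMUSG00000036781.13; chromosome 9, 66946086 to 66949516, plus strand) had 333, 304.3 and 329 TPM with rGST and 346, 331 and 331 with rSLURP1, and the groups overlapped. Its log2 fold change was 0.06 (SE 0.045, limma, adjusted p = 0.248), and it was called higher with median-ratio scaling (0.42), quantile normalization (0.21) and with the members left out of the total (0.17). Rps27 was higher (log2 fold change 0.39), and Rps27l went from 5.70% ± 0.203 to 4.53% ± 0.190 of it (SD, n = 3 each). With quantile normalization Rps27 lost its call (0.08, limma, adjusted p = 0.245) and the log2 ratio of Rps27l to Rps27 turned from -0.33 to 0.13. Rps27rt, another relative of Rps27, stood at 2.56% ± 0.102 and 2.62% ± 0.116 of it as deposited, a log2 ratio difference of 0.03. Quantile normalization gave 0.56 for that difference, and the correction for length and GC gave -0.11.

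Rpl22l1 moved the other way. Rpl22l1 (ENSMUSG00000039221.10; chromosome 3, 28805436 to 28807424, plus strand) can take the place of Rpl22, which is known to repress it. It had 561, 552 and 584 TPM with rGST and 839, 936 and 899 with rSLURP1, a log2 fold change of 0.65 (SE 0.048, limma, adjusted p = 2.31e-05). Rpl22 (ENSMUSG00000028936.15; chromosome 4, 152325742 to 152334071, plus strand) had 998, 1007 and 1057 TPM and then 1334, 1405 and 1421, a log2 fold change of 0.44. Rpl22l1 thus went from 55.4% ± 0.740 to 64.3% ± 2.08 of Rpl22, and the libraries did not overlap. Rpl36al, a near copy of Rpl36a, went from 36.98% ± 0.854 to 39.9% ± 1.86 of it (SD, n = 3 each), a change close to the spread. With quantile normalization the log2 ratio differences of Rpl22l1 and Rpl36al were 0.41 and 0.44, against 0.21 and 0.11 as deposited. Of the 7 deposited ratios, 4 separated the treatments (two-sided exact permutation p = 0.1 in each, Benjamini-Hochberg adjusted p = 0.175 over the 7), and 0.1 is the smallest p that 3 against 3 libraries allow.

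**Figure D5:**
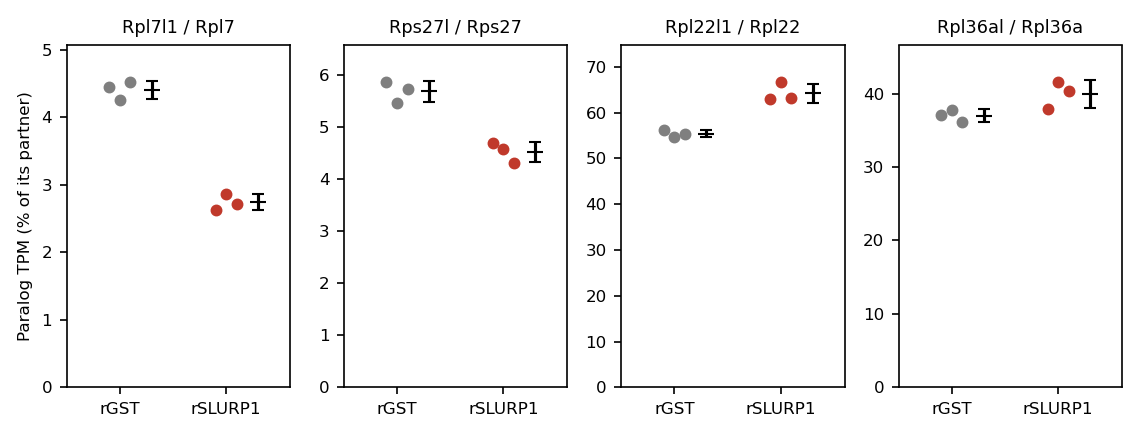
TPM of each of 4 paralogs as a percent of its canonical partner in the 3 rGST and the 3 rSLURP1 libraries (points), with mean and SD (bars), each axis starting at 0. Rpl7l1 and Rps27l are lower against their partners with rSLURP1, and Rpl22l1 and Rpl36al are higher, with no overlap of the points as deposited; with quantile normalization the difference of Rpl7l1 is -0.03 on the log2 scale and that of Rps27l turns to 0.13.

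Rps19bp1, which is no ribosomal protein, had 38.3, 34.8 and 43.4 TPM with rGST and 40.9, 38.7 and 42.5 with rSLURP1, and the groups overlapped. Its log2 fold change was 0.07 (SE 0.084, limma, adjusted p = 0.474), and it was called higher with median-ratio scaling (0.42) and quantile normalization (0.41).

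Copies of the genes elsewhere in the genome took up reads. Of 253 rows with -ps after the name of a member, 66 were tested, with a median log2 fold change of 0.43. Of these, 31 were higher and 1 lower, against 8.66% and 58.5% of all tested genes. The 253 rows held 0.51% of the TPM total with rGST and 0.73% with rSLURP1. Rps2-ps10 had 2364 ± 57.2 TPM with rGST against 995.3 ± 38.3 for Rps2 itself (SD, n = 3 each), and both had a log2 fold change of 0.74. Rpl35a-ps2, Rpl35a-ps3, Rpl35a-ps4 and Rpl35a-ps6 were listed with identical values in every library, 377 ± 7.37 TPM with rGST. The 1 lower row was Rpl3-ps1, which went from 502.4 ± 15.7 TPM in the rGST libraries to 464.1 ± 11.9 in the rSLURP1 libraries (SD, n = 3 each). Its log2 fold change of -0.11 (SE 0.038, limma, adjusted p = 0.0308) is not independent of that of Rpl3, since the copies can share reads. With such rows added to their members, Rpl3 was called lower (-0.10, adjusted p = 0.0393 in limma) and Rpl35a was at 0.27 in place of 0.44.

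Other parts of the translation machinery moved less evenly. Of ribosomal proteins that the name pattern leaves out, Fau, which is made as a fusion protein, had a log2 fold change of 0.30 and Gnb2l1, which encodes RACK1, had 0.72, and both were called higher. With quantile normalization Fau was called lower (-0.11). In a list of 18 other genes whose mRNAs are known or thought to carry the oligopyrimidine tract, 12 were higher, 2 were lower and 4 did not pass the test, with a median of 0.26. The shares over all tested genes were 8.66% higher and 58.5% lower. Eef1a1, the main elongation factor, had a log2 fold change of 0.41, and Eef1b2 had 0.77. Hnrnpa1 was lower (-0.85), and so was Eif4b, a helicase cofactor of initiation (-0.23). The mitochondrial ribosomal proteins, which serve a separate ribosome, had a median of -0.19, which is 0.14 above that of all tested genes. Of 78 tested, 5 (6.41%) were higher and 40 (51.3%) lower, near the shares over all genes.

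The tract at the annotated start did not divide the medians of the 57 canonical genes that had a start among the promoters. Rpl3 and Rpl36 had none there. The 25 genes with a run of at least 8 pyrimidines near a start had a median log2 fold change of 0.52 (range 0.22 to 0.66). The 32 without had 0.52 (range 0.30 to 0.82). Medians were 0.55 and 0.49 for the 24 genes with CCGGAAG and the 33 without, and 0.49 and 0.52 for the 9 with AAGATGG and the 48 without. These values are a description over genes that move together, and annotated starts need not be those used in D2A1. The members lie on 19 chromosomes, 15 of them on chromosome 7, and the 4 on chromosome X had log2 fold changes from 0.53 to 0.74.

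Other features of the libraries moved with the treatment. Mitochondrially encoded RNA held 11.03% to 12.19% of the total in the rGST libraries and 12.5% to 14.3% in the rSLURP1 libraries, and the number of genes at a TPM of at least 1 was 12390 to 12449 and 11906 to 11981. The mammary epithelial list was hardly represented, with Epcam, Cdh1 and 5 others of 10 below a TPM of 1 in every library. Of its 2 tested genes, Krt18, at 191 to 199, did not pass the test. Krt8 was lower, with a mean TPM of 1.56 with rGST and 0.70 with rSLURP1. The summed TPM of the list, mostly that of Krt18, was 194.2 to 201.4 with rGST and 197.8 to 200.8 with rSLURP1. A fibroblast list of 10 genes had all 7 tested genes lower, where 58.5% of all tested genes were lower. Its summed TPM was 1204 to 1352 with rGST and 78.1 to 89.8 with rSLURP1, with Col1a2, Col3a1 and Thy1 below a TPM of 1 throughout. Of 8 leukocyte genes, 7 were below a TPM of 1 in every library, and Cd68 was higher. Of 6 endothelial genes, 5 were below it and none was tested. The part of these features in the ribosomal protein values was not tested.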

How the data were processed

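The deposited values are TPM from RSEM, 1 column per library with no pooling, which the authors made after adapter trimming (Cutadapt 1.18) and alignment to mm10 (STAR 2.5.2b). The submitters' processing notes give RSEM 1.3.3, and the paper's methods name another release, GENCODE M12 and Smart-seq2, whereas the labels name a TruSeq kit. TPM holds no depth, which is therefore unknown, and counting error could not be given.

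Groups and replicate numbers came from the sample titles. Tests used limma 3.58.1 in R 4.3.3 (lmFit, then eBayes with trend) on log2(TPM + 1) of the 12301 genes that 3 or more libraries held at a TPM of 1 or above. Coordinates, lengths and GC content came from GENCODE M21 (GRCm38), which held 54079 of the 54146 identifiers without their version. Promoters came from RefSeq, matched by symbol. Scripts were tested on simulated data. Same-numbered libraries had correlations of -0.06 to -0.03 in their deviations from the group means, so the numbers were not taken to pair them.

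The members and lists were chosen with earlier results of these data known. The rule named members not called higher, the 5 highest and 5 lowest fold changes, the 5 highest levels, paralogs and partners, stalk and 5S proteins, Rps6, Rps27a, Rps19bp1, Fau and RACK1. Some genes are not reported here, and they were left out of the plots of single genes and of the counts over named genes. The promoter motifs and the alternatives for the paralog ratios were chosen after the data were seen, as were Rpl29, Rpl35a, Rpl41, Rpl10, Rpl8 and the -ps rows named. Figures were made with matplotlib 3.10.9.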

Additional observations from a re-analysis of the deposited data

How the results depend on the processing

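Between 60 and 85 members were called higher over the alternatives, against 81 as reported, and what depth limits is unknown. Called lower were 0 with median-ratio scaling and when length and GC content were corrected for, blocked or not, 4 with quantile normalization and 2 with -ps rows added, against 1, and 1 to 2 when one library was left out (2, with Rpl3 added, without rSLURP1 replicate 2). The median log2 fold changes of members, large subunit, small subunit and paralogs were 0.86, 0.83, 0.89 and 0.81 with median-ratio scaling, 0.20, 0.18, 0.19 and 0.65 with quantile normalization, 0.62, 0.59, 0.65 and 0.62 with the members left out of the total, and 0.69, 0.67, 0.73 and 0.61 when length and GC content were corrected for, blocked or not. Without mitochondrial genes the members and the large subunit were at 0.54 and 0.50 and the share differed by 7.55 percentage points in place of 6.26. With a pseudocount of 0.1 the paralog median was 0.58. The large minus small median was -0.0093 with quantile normalization, and the ratio of summed TPM differed by -0.044 with -ps rows added. Leaving out one library gave 0.49 to 0.52 for the members, 0.47 to 0.50 for the large subunit, 0.54 to 0.55 for the small subunit, 0.44 to 0.58 for the paralogs and -0.073 to -0.054 for the large minus small median, 6.06 to 6.52 percentage points for the share and -0.032 to -0.027 for the ratio. For these changes the cause was not tested.

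Under a replicate block (median 0.51), 81 members were higher and 1 lower, as without it. The block changed no call of a named member, and together with the correction it called Rps19bp1 higher (0.19). Reversed were Rpl3 (0.26, 0.21 and 0.015) with median-ratio scaling, the correction (blocked or not) and the members left out, Rpl7l1 (0.063 and 0.064) with median-ratio scaling and the correction, and Rpl24, Rpl36, Rpl7a, Rps14 and Fau (-0.070, -0.17, -0.16, -0.18 and -0.11) with quantile normalization. Rps19bp1 ranged from -0.00285 without rGST replicate 2 to 0.15 over the libraries left out. Of the ratios, Rps3a2 to Rps3a1 ranged from -0.057 to 0.00513 (without rSLURP1 replicate 1) over the libraries left out, and Rps3a3 to Rps3a1 from -0.34 to 0.039 (without rSLURP1 replicate 2; 0.00921 without rGST replicate 1). With quantile normalization, Rps27l to Rps27 (0.13), Rps3a2 to Rps3a1 (0.44) and Rps3a3 to Rps3a1 (0.68) turned, and Rps27rt to Rps27 turned with the correction (-0.11). Over the named genes, with Fau and Gnb2l1 among them, 671 values kept their direction and call, 7 lost the call (Rpl7, Rpl7l1, Rpl11, Rps27 and Rps28 with quantile normalization, Rpl36 with the correction, blocked or not), 11 gained one and 13 turned. The replicate block, the fit without trend and the changed filters leave the fold change itself unchanged, so many of the 671 values could not have turned.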
